A study of Rattus norvegicus with 52 samples.

Results

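Stained liver sections of F344 rats at 0.29% clofibric acid (CA) were set against stained sections of control F344 rats. Arrays were assigned by the section type and dose in their labels, which gave 7 CA arrays and 8 control arrays, 15 of the 52 arrays of the series. The series measured total RNA on 1-colour oligonucleotide arrays, 1 array per sample, in entire, stained, dehydrated, LCM-reference-time and microdissected sections at 0, 0.29 and 0.54% CA. LCM is laser capture microdissection, which cuts chosen regions out of a section under a microscope. Beside the compared groups, 5 stained arrays at 0.54% CA entered the fit, and 8 entire-section arrays at 0.29% CA with 8 entire-section controls were used for comparison. How CA was given and for how long, which stain was used, and how old and of which sex the rats were is information not given in the sources used here. Separate animals are not stated for the replicates, and neither is any sharing of rats by the stained sections and the entire or other sections. The p-values below therefore cover only the spread among these particular arrays, part of which may be technical.

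CA is a fibrate. Fibrates bind the nuclear receptor PPARα, which pairs with the retinoid X receptor on DNA and turns on genes of fatty acid uptake and of peroxisomal, mitochondrial and microsomal fatty acid oxidation. In rats and mice such compounds also enlarge the liver and multiply its peroxisomes. Staining exposes a section to aqueous and alcoholic solutions before its RNA is extracted, and RNA that breaks in this step loses the 5' side of the transcript first in assays primed from the poly(A) tail.

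No file pairs a probe set with a gene, and of the accessions that form the IDs 0 were found in the rat gene table at hand. The probe sets below are therefore given by their IDs, without gene names or roles, and the liver label could not be set against marker genes. Intensities are the deposited ones, in arbitrary linear units, and can lie below 0. Log2 intensities and fold changes are on a quantile-normalized scale on which intensities at or under a floor of 4 have the lowest value, 2. Calls are probe sets with an adjusted p (limma's moderated test, Benjamini-Hochberg) under 0.05.

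The CA and control arrays overlapped on the leading components of variance and were apart on a later one. The first component of a principal component analysis held 22.8% of the variance, and on it the CA arrays ran from -52.0 to 48.75 and the controls from -34.96 to 42.18. The next held 16.5% and set apart CA replicate 7 and control replicate 8, at -69.43 and -63.45, with the other 13 arrays between -10.49 and 33.5. These 2 arrays also had the highest 5S rRNA control intensities, 241 and 232, against 15 to 75 on the other 13. On the third component, with 12.9% of the variance, all 7 CA arrays lay at 13.47 or above and all 8 controls at 5.81 or below. The median correlation of an array with another was 0.913 among CA arrays, 0.906 among controls and 0.903 between CA and control arrays.

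RNA quality measures did not pass a test between the groups. The GAPDH 3'/5' ratio sets the signal near the transcript's poly(A) end over that near its start. Its log2 was 2.80 ± 0.565 on CA arrays (SD, n = 7) and 3.31 ± 0.778 on controls (SD, n = 8; two-sided exact permutation p = 0.177, adjusted 0.324 over 5 measures). For beta-actin the log2 ratio was 2.78 ± 0.426 on CA arrays (SD, n = 7) and 2.40 ± 0.523 on controls (SD, n = 8; exact permutation p = 0.149, adjusted 0.324). The 2 ratios thus lay in opposite directions. The number of probe sets above the floor was 5556 ± 244 on CA arrays (SD, n = 7) and 5493 ± 213 on controls (SD, n = 8; exact permutation p = 0.601, adjusted 0.717).

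Of 7913 probe sets tested, 145 were higher (1.83%) and 141 lower (1.78%) at 0.29% CA than in controls, together 3.61%, and 1000 had an unadjusted p under 0.05. With the floor of 4 the rises were the larger changes. Of the higher calls, 101 were at least 2-fold higher, 54 at least 4-fold and 22 at least 8-fold, with a median log2 fold change of 1.60. Of the lower calls, 98 were at least 2-fold, 19 at least 4-fold and 6 at least 8-fold, with a median of -1.25. Calls of at least 2-fold were 2.51% of those tested. The median over all tested probe sets was -0.01. The CA and control arrays did not overlap for 77 of the higher and 52 of the lower calls, while 1.71% of all tested probe sets had groups that did not overlap. With the 3 stained arrays of high 5S rRNA left out, 154 probe sets were higher and 149 lower, and 240 of the 286 calls were kept.

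**Figure D1:**
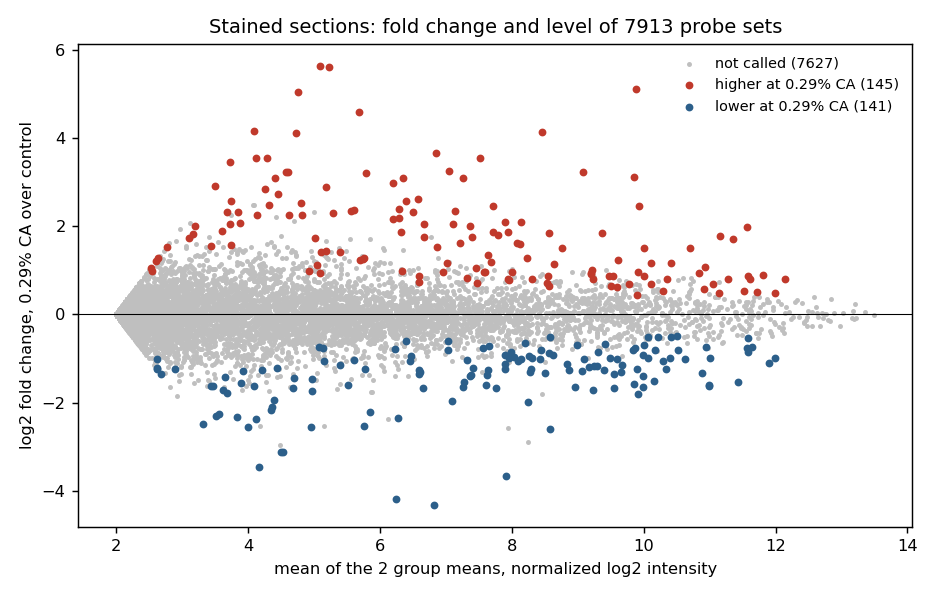
Log2 fold change of 0.29% CA over control in stained sections (y axis) against the mean of both group means in normalized log2 intensity (x axis), 1 point per probe set tested (7913). The 145 higher calls reach 5.63 and the 141 lower calls reach -4.32, and calls are sparse at the lowest levels.

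Calls gathered at high levels. The tested probe sets were split by mean log2 intensity into 4 classes of 1978 or 1979. In the brightest class, 6.18 and above, 92 were higher and 100 lower, 9.71% of the 1978 tested. In the class below it, between 3.98 and 6.17, 34 were higher and 25 lower, which is 2.98% of 1978. In the dimmest class, up to 2.56, 2 of 1979 were called. The median size of a call was 2.24 on the log2 scale in the class from 3.98 to 6.17 and 1.13 in the brightest. A change among values at or under the floor cannot show on this scale, and a probe set at the floor is not shown to be without RNA. The part of the floor in the smaller share of calls at low levels was not tested.

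Some calls came from probe sets at the floor in much of 1 group. For 25 of the 145 higher calls at least 4 of the 8 controls were at the floor, and for 6 of them all 8 were. For 10 of the 141 lower calls at least 4 of the 7 CA arrays were at the floor, and for 3 all 7 were. By contrast 102 higher and 110 lower calls were above the floor on all 15 arrays.

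Probe set m38759_at had the largest rise among calls that were above the floor on every CA array. Its intensities on the 7 CA arrays were 320, 269, 317, 326, 290, 121 and 104. On the 8 controls they were -6, 10, 6, -16, 1, -11, -14 and -2, so 6 controls were at the floor and no control came near the lowest CA array. The lowest CA arrays were replicates 6 and 7. The fold was 49.6 (log2 5.63 ± 0.25, SE, adjusted p = 1.30e-11), a value set by the floor in controls, and 12.0 with a floor of 20. Probe set ab010428_s_at followed, with intensities of 305, 337, 225, 158, 326, 400 and 114 on CA arrays. Its control intensities were 8, 10, 6, -3, -2, -7, 2 and 0, again below every CA array. The fold was 48.7 (log2 5.60 ± 0.28, SE, adjusted p = 7.87e-11), and 13.1 with a floor of 20.

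Probe set u46118_at had the largest fall. It was uniform under CA, at 22, 24, 19, 18, 33, 27 and 20 on the 7 CA arrays. The 8 controls had 467, 530, 248, 387, 570, 583, 654 and 335, so the lowest control stood far above the highest CA array. The fall was 19.97-fold (log2 -4.32 ± 0.30, SE, adjusted p = 8.02e-09). It was 20.9-fold with a floor of 20, a larger change than the rises of m38759_at and ab010428_s_at at that floor. Probe set m00002_at fell nearly as far but was less even in both groups. Its intensities were 30, 22, 19, 66, 11, 3 and 10 on CA arrays. On controls they were 577, 76, 709, 942, 115, 107, 235 and 493, so that control replicates 2, 5 and 6 lay closer to the CA arrays than the other controls did. Control replicates 2, 5 and 6 were also among the 4 controls at the positive end of the leading component, at 31.57, 42.18 and 33.94, and the part of that component in this spread was not tested. The groups did not overlap, with a fall of 18.2-fold (log2 -4.18 ± 0.57, SE, adjusted p = 7.70e-05) and 12.75-fold with a floor of 20.

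**Figure D2:**
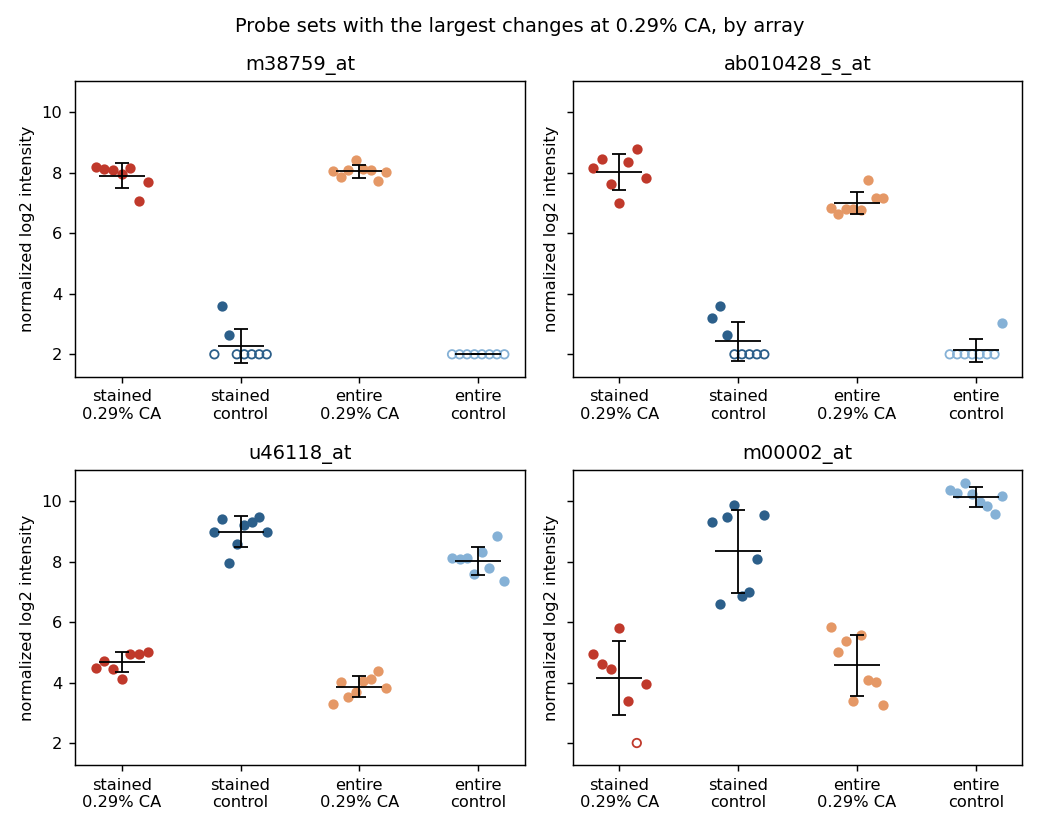
Normalized log2 intensity of m38759_at, ab010428_s_at, u46118_at and m00002_at (y axis) on each array of stained sections at 0.29% CA (n = 7), stained controls (n = 8), entire sections at 0.29% CA (n = 8) and entire controls (n = 8). Open circles are arrays at the floor, and bars give the mean ± SD. In all 4 panels the stained CA arrays lie apart from the stained controls, and the stained controls of m00002_at spread over more than those of u46118_at.

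The same 4 probe sets had the same direction in the other preparations at 0.29% CA. In entire sections m38759_at averaged 333 ± 51.9 at 0.29% CA and -9.0 ± 4.28 in controls (SD, n = 8 each). In entire sections m00002_at averaged 35.9 ± 23.6 at 0.29% CA and 1274 ± 249 in controls (SD, n = 8 each), a narrower control range than after staining. On single arrays, u46118_at had an intensity of 51 at 0.29% CA and 601 in the control of dehydrated sections, and of 6 and 199 in LCM-reference-time sections in the same order. In microdissected liver u46118_at had 8 on the array at 0.29% CA and 238 and 312 on the 2 controls. For none of the 4 did the CA effect pass the test of a difference between the preparations, stained minus entire. For ab010428_s_at that difference was 0.74 ± 0.33 on the log2 scale (SE, adjusted p = 0.948), and it passed with a floor of 20, at 1.04 (adjusted p = 0.0285). The difference for m00002_at was 1.38 ± 0.69 (SE, adjusted p = 1.0).

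Taken over all calls, most stained-section changes had the same direction on arrays outside the fit that chose them. In dehydrated sections, with 1 array at 0.29% CA and 1 control, 133 of the 145 higher calls were higher and 127 of the 141 lower calls were lower. In LCM-reference-time sections, with 1 array each, the counts were 130 and 119. In microdissected liver, with 1 array at 0.29% CA and 2 controls, they were 130 and 128. The median log2 difference of CA minus control for the higher calls was 1.34, 1.40 and 1.41 in these 3 preparations, and for the lower calls -0.89, -1.14 and -1.22. Over all 7913 tested probe sets the median difference was 0.0 in each. Of them 3332, 3076 and 2926 were higher (42.1%, 38.9% and 37.0%), and 1660, 1673 and 1312 were tied and counted in neither direction. The rest were lower, and that part, not the share higher, is the one to set beside the lower calls. These single arrays carry no replicate check, were normalized together with the stained ones, and may come from the same rats, which is not stated.

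The response was also measured on each stained array over lists of probe sets chosen on the entire sections, in a fit without the stained arrays. In entire sections 433 probe sets were higher (5.55%) and 444 lower (5.69%) at 0.29% CA than in controls, 11.2% of 7804 tested, and 431 and 440 of them were tested in stained sections. On each stained array the median shift of both lists from the stained control mean was taken, and the lower list's shift was subtracted from the higher list's. This difference was 1.333, 1.349, 1.485, 1.421, 1.314, 1.296 and 1.428 on the 7 CA arrays. On the 8 controls it was -0.099, -0.123, 0.098, -0.048, -0.068, 0.004, 0.105 and 0.113. Values near 0 on the controls follow from centring on their own mean. The CA arrays thus lay close together, and CA replicate 7, which stood apart by 5S rRNA and overall signal, had a shift within the range of the other 6. The components of the shift varied more: the higher list moved by 0.614 to 0.902 and the lower list by -0.783 to -0.532. CA replicates 5, 6 and 7 had the 3 smallest shifts of the higher list and the 3 largest of the lower list.

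**Figure D3:**
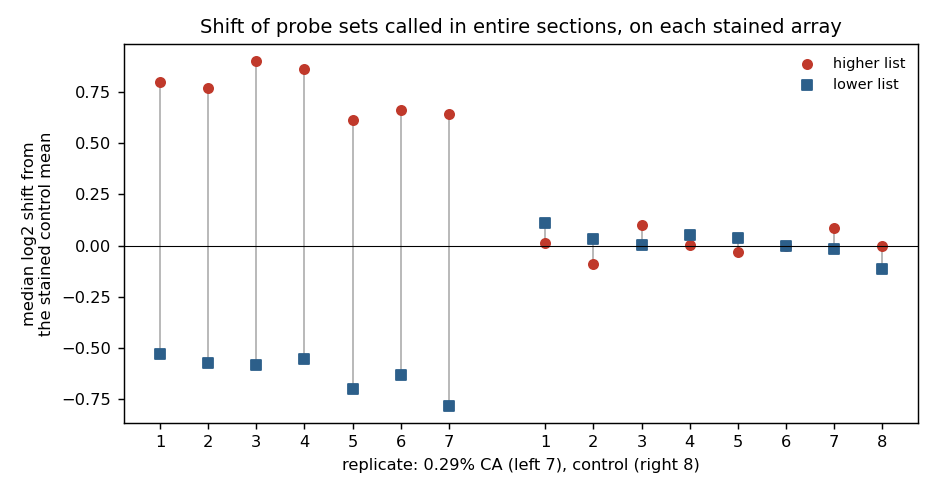
Median log2 shift from the stained control mean (y axis) of 431 probe sets that were higher (circles) and 440 that were lower (squares) at 0.29% CA in entire sections, on each of 7 stained CA arrays and 8 stained control arrays (x axis, by replicate). All 7 CA arrays have the circle at 0.614 or above and the square at -0.532 or below, while on controls both lie between -0.113 and 0.111.

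Fewer probe sets passed in stained than in entire sections, and those that passed were mostly shared. Of the higher calls in stained sections 127, or 87.6%, were also called higher in entire sections, which is 29.5% of the entire-section calls tested in both. Of the lower calls 114, or 80.9%, were also called lower, which is 25.9% of the entire-section calls. The controls of the preparations are separate arrays. The standard error of a fold change was larger in stained sections, with a median of 0.349 against 0.229 in entire sections on the log2 scale over 7526 probe sets tested in both, and of 0.243 against 0.144 over the 1979 brightest. For the 431 probe sets called higher in entire sections, the median log2 fold change was 0.702 in stained and 0.896 in entire sections. For the 440 called lower it was -0.597 in stained and -0.824 in entire sections. Both lists were chosen on the entire sections, so their entire-section medians are a description. Of the 431 and 440, 92.6% and 93.0% had the same sign in stained sections, while 66.4% of all probe sets tested in both had 1 sign.

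Few calls passed a test of a difference between the preparations. For 18 higher and 27 lower calls there was no call in entire sections. All 18 and 25 of the 27 had the same sign there. The test of the difference itself was passed by 0 of the 18 and 1 of the 27. Across all 8191 probe sets tested it was passed by 7, 0.0855% of them, of which 2 were higher (0.0244%) and 5 lower (0.061%) in stained sections, while 391 had an unadjusted p under 0.05. Of the 7, 5 were above the floor on at most 2 of the 15 stained arrays, so for them the difference restates the change in entire sections. Probe set d86039_g_at, with the largest positive difference, had intensities of -117 to -8 at 0.29% CA and -103 to -35 in controls of stained sections, all at the floor. In entire sections it ran from -26 to 8 at 0.29% CA and from -38 to 45 in controls. Its difference of 1.99 ± 0.38 (log2, SE, adjusted p = 0.00793) was 0.23 with a floor of 20 (adjusted p = 0.95).

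The 1 of the 27 lower calls was e00001cds_i_at, named after its values were seen. On the stained CA arrays it had 8, -14, -19, -10, 15, -14 and -46. On the stained controls it had 14, 79, 54, 12, 145, 133, 122 and 29, and the highest CA array lay above the 2 lowest controls. With 5 of the 7 CA arrays at the floor, the size of the fall depends on it. The difference in stained sections was -3.46 ± 0.51 on the log2 scale (SE, adjusted p = 0.000173) and -1.67 with a floor of 20 (adjusted p = 0.0144). In entire sections it lay below 0 on all 8 arrays at 0.29% CA, from -156 to -36, and on 7 of 8 controls, where replicate 7 had 56. That entire control had the highest GAPDH 3'/5' ratio of its group, 6.25, and the other 7 had 1.25 to 1.92. The entire-section array at 0.29% CA with the highest ratio of its group, replicate 7 at 5.07, had an intensity of -36. The part of RNA quality in this signal was not tested. The difference between preparations, -3.01 ± 0.64 (log2, SE, adjusted p = 0.0349), lost its call in 20 of 45 alternatives, and was -1.51 with a floor of 20 (adjusted p = 0.194).

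**Figure D4:**
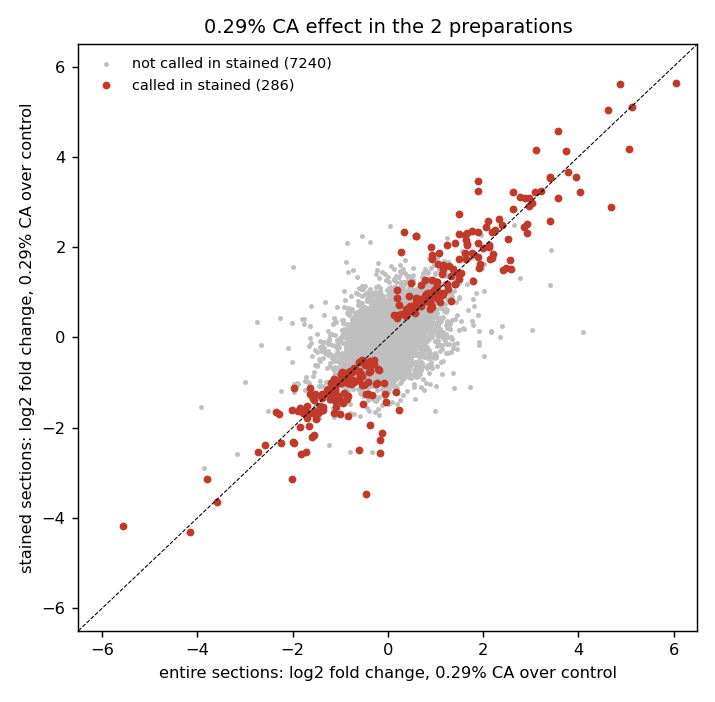
Log2 fold change of 0.29% CA over control in stained sections (y axis) against that in entire sections (x axis) for the 7526 probe sets tested in both, with the line of equal change dashed. The 286 calls of stained sections, in red, lie along the line apart from a few near 0 on the x axis, and the grey points of stained sections spread widely around 0.

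Few single probe sets passed a test between the doses in stained sections, and most of those calls were fragile. At 0.54% CA against 0.29% CA, 5 of 7913 probe sets (0.0632%) were called, 2 higher (0.0253%) and 3 lower (0.0379%), and 374 had an unadjusted p under 0.05. On the measure of array shift given above, controls lay at -0.123 to 0.113, the 7 arrays at 0.29% CA at 1.296 to 1.485 and the 5 arrays at 0.54% CA at 1.522 to 1.785, so every array at the higher dose lay above every array at the lower one; this order was not tested. Of the 5 calls, 3 were also among the 286 calls at 0.29% CA. Probe set j00738_s_at had 4629, 6979, 4466, 4515, 5133, 7161, 4094 and 4944 in controls, 2145, 2147, 1707, 1437, 2431, 1819 and 756 at 0.29% CA, and 785, 474, 429, 645 and 251 at 0.54% CA. Controls did not overlap with 0.29% CA, and in intensity 1 array at 0.54% CA lay above the lowest at 0.29% CA. On the normalized log2 scale the doses of j00738_s_at did not overlap, with a lowest value of 10.221 at 0.29% CA and a highest of 9.493 at 0.54% CA. This probe set was 3.68-fold lower at 0.54% than at 0.29% CA (log2 -1.88 ± 0.22, SE, adjusted p = 0.000469), and at 0.29% CA 2.88-fold lower than in controls (log2 -1.52 ± 0.20, SE, adjusted p = 3.62e-05). Probe set m15114_g_at had 98, 133, 147, 215 and 150 at 0.54% CA and 19, 20, 31, 41, 74, 68 and 7 at 0.29% CA. It was 4.34-fold higher at 0.54% than at 0.29% CA (log2 2.12 ± 0.37, SE, adjusted p = 0.0354). In controls m15114_g_at was above the floor on 1 of 8 arrays, and the rise at 0.29% CA over control, log2 2.91 ± 0.33 (SE, adjusted p = 7.96e-06), was not called with a floor of 20, at 0.77 (adjusted p = 0.113). Probe set j02657_s_at was 2.32-fold lower at 0.54% than at 0.29% CA (log2 -1.21 ± 0.20, SE, adjusted p = 0.0354) and at 0.29% CA 1.68-fold lower than in controls (log2 -0.75 ± 0.18, SE, adjusted p = 0.0191). The remaining 2 were not called at 0.29% CA against control. Probe set af065431_s_at had 19, 11, 11, 1 and 14 at 0.54% CA and was at the floor on all 7 arrays at 0.29% CA and all 8 controls. It was tested only through the 0.54% arrays that lie just above the floor (adjusted p = 0.0354), so no fold is given; no stained array reached a floor of 20, and the call was lost in 14 of 24 alternatives. Probe set l02529_at had 0, -18, -36, 25 and 25 at 0.54% CA, 3 of them at the floor, and 66, 75, 55, 39, 94, 88 and 20 at 0.29% CA. In intensity the lowest array at 0.29% CA overlapped with the higher dose. On the normalized log2 scale that array had 5.009, and the highest at 0.54% CA had 4.806. The difference of l02529_at between doses was -2.80 ± 0.51 (log2, SE, adjusted p = 0.0371), but -1.30 with a floor of 20 (adjusted p = 0.322), and the call was lost in 14 of 25 alternatives. Without the 3 arrays of high 5S rRNA, m15114_g_at and j02657_s_at were not called between doses (adjusted p = 0.0738 and 0.0536), and j02657_s_at not at 0.29% CA against control (adjusted p = 0.0501). Over all alternatives m15114_g_at and j02657_s_at each lost the call between doses in 12 of 26, and j00738_s_at in 1 of 26. With only the 2 CA groups in the limma fit 0 probe sets passed and 377 had an unadjusted p under 0.05, and leaving out 1 array gave between 1 and 9 calls. Among the 4 probe sets with the largest changes at 0.29% CA, 0 differed between the doses, although ab010428_s_at passed with a floor of 20 (log2 1.07, adjusted p = 0.0342).

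Probe sets made for the same accession were compared within the stained sections. Of 856 accessions with exactly 2 tested probe sets, 58 had at least 1 call. Both members were called in the same direction for 12 of them, 9 higher and 3 lower, and 0 were called in opposite directions. Of the 46 accessions with 1 call, the other probe set had the same sign in 36, and the called one had the higher mean level in 29. Where neither was called, 63.3% of 798 accessions had 1 sign. Such pairs lie on the same array, so they are no replicates. Pairs were formed by accession alone, and some IDs name different parts of it, such as ab003753cds#1_at and ab003753cds#2_at. The members of a pair therefore need not read the same RNA.

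The pair of accession y09333 was singled out after its values were seen, and 1 of its 2 probe sets passed the test of a difference between preparations. Probe set y09333_g_at had 105, 123, 70, 88, 23, 76 and 46 on the stained CA arrays. On the stained controls it had -10, -28, -7, -39, -23, -29, -17 and -24, all at the floor, so the size of the rise is set by the floor. It was log2 4.17 ± 0.26 with the floor of 4 (SE, adjusted p = 1.56e-09) and 1.86 with a floor of 20 (adjusted p = 3.51e-05). The other, y09333_at, stayed between -7 and 7 on the stained CA arrays and between -16 and -4 on the stained controls (log2 0.15 ± 0.21, SE, adjusted p = 0.841). In entire sections both were higher at 0.29% CA. There y09333_at had 24 to 85 at 0.29% CA and -2 to 15 in controls, and y09333_g_at had 124 to 212 at 0.29% CA and -82 to 6 in controls. The difference between preparations was -2.87 ± 0.35 for y09333_at (log2, SE, adjusted p = 4.76e-06) and -0.89 ± 0.73 for y09333_g_at (SE, adjusted p = 1.0). That fit also held the entire sections at 0.54% CA, where y09333_g_at had -56 on replicate 3 and 284 to 492 on the others. This spread enters the standard error of y09333_g_at, so its missing call does not show an equal effect in both preparations. The GAPDH 3'/5' ratio, 3.48 to 10.3 on the stained CA arrays and 4.66 to 18.9 on stained controls, ran from 1.18 to 5.07 at 0.29% CA and from 1.25 to 6.25 in controls of entire sections. Its part in the loss of y09333_at signal was not tested.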

How the data were processed

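The deposited values are linear intensities in whole numbers. Rows number 8799, and the 59 control rows stayed out of every test. Which software and scaling the authors applied to the intensities is not given in the sources used here. Precision is limited by how many arrays a group has and by signal over background. Intensities under the floor of 4, the 10th percentile of the positive ones, were raised to it, log2 was taken, and the 52 arrays were quantile normalized. The 3 stained groups were fitted together with limma 3.58.1 in R 4.3.3 (lmFit, eBayes, two-sided), with Benjamini-Hochberg adjustment over the 7913 non-control probe sets above the floor on at least 1 of the 20 stained arrays. The difference between preparations was fitted with the 6 stained and entire groups. Array quality was compared with exact permutation tests (SciPy 1.17.1, Python 3.11.15), and plots were drawn with matplotlib 3.10.9. The fit was tested on simulated data, with changes placed only in probe sets well above the floor. That test does not cover changes near the floor.

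The comparison, the lists and the rules were chosen with earlier results of these data known. Gene lists and cell type markers chosen by symbol could not be used, because no table pairs the probe sets with genes. In their place, at most 2 calls with the biggest rise and at most 2 with the biggest fall are given, for the CA comparison only those above the floor on all arrays of the higher group; all 5 calls between doses are given, and others are named as chosen after their values were seen. No batch or scan date is given. Alternatives (groups in the fit, scaling, floor, filters, weights, variance prior, GAPDH covariate, replicate block, arrays left out) are in the closing section.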

Additional observations from a re-analysis of the deposited data

Results flagged for a closer look

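On CA replicate 7 the 5S rRNA control intensity was 241, and the nearest of the other 6 CA arrays had 50. The trimmed mean intensity of the same array was 56.28, and the nearest CA array had 93.4. On control replicate 8 the 5S rRNA intensity was 232, and the nearest of the other 7 controls had 75. For m38759_at, control replicate 2 had a normalized log2 intensity of 3.587, and the nearest control 2.632, both close to the floor. Each of these arrays stood apart from its group by a gap of more than 0.526 of the range in groups of 8 or 0.568 in groups of 7. For normally distributed values chance alone sets apart about 1 group in 20. The search covered the array quality measures, the probe sets with the largest changes and the array shift, each in CA arrays and in controls. For m38759_at only 2 of the 8 controls lay above the floor and the others were tied, so this rate does not hold there.

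The test of a difference in the CA effect between stained and entire sections was passed by the probe sets given by their IDs here. On the log2 scale, stained minus entire, the difference was 1.99 for d86039_g_at, 1.90 for d38061exon_s_at, -3.46 for rc_aa799326_s_at, -3.19 for ab005743_g_at and -2.87 for y09333_at. With a floor of 20 it was 0.23 for d86039_g_at and 0.09 for d38061exon_s_at, and neither passed (adjusted p = 0.95 and 0.784). At that floor rc_aa799326_s_at, ab005743_g_at and y09333_at passed, at -1.65, -1.16 and -1.22. In stained sections d86039_g_at, rc_aa799326_s_at and ab005743_g_at were at the floor on all 15 arrays. No CA effect could be measured for them there, so their difference restates the change in entire sections. Probe sets d38061exon_s_at and y09333_at were above the floor on 2 stained CA arrays and 0 stained controls each. In entire sections rc_aa799326_s_at was above the floor on 7 of 8 arrays at 0.29% CA and 2 of 8 controls, and ab005743_g_at on 7 and 0. The remaining 2 were e00001cds_i_at at -3.01 and ab005743_at at -2.44, the second above the floor on 0 stained CA arrays and 3 stained controls, and on 8 of 8 arrays of each entire-section group.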

How the results depend on the processing

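The counts given here are limma calls at an adjusted p under 0.05. At 0.29% CA against control, 286 probe sets were called; all 15 groups in the fit gave 546, of which 279 were among the 286, and the other settings between 199 and 427. Leaving out 1 array gave 240 to 292. The 4 probe sets with the largest changes kept their direction and call in all 29 alternatives of each. For the difference between preparations, with 7 calls, a floor of 20 gave 16, a filter at the 75th percentile 3, array weights 15, and leaving out the stained arrays of high 5S rRNA and the entire arrays of high GAPDH ratio 17; leaving out 1 array gave 6 to 13, with 13 reached without entire 0.29% CA replicate 7 and 11 when replicate 7 of the entire controls, or replicate 4 or 8 of the stained ones, was left out. Its share of higher calls was 28.6%, and 40% with all groups in the fit or normalization within the fitted arrays. For the dose difference, with 5 calls, only the compared groups gave 0, all groups 18, a floor of 20 10, normalization before the floor 8, the filter 10, array weights 19, a trend and robust prior 10, the GAPDH covariate 2 and the arrays in doubt left out 3. Centring on each array's median gave 5, of which 20% were higher against 40%, with the median of all probe sets at -0.103. Leaving out 1 array gave 1 (without 0.29% CA replicate 1, 2 or 3, or 0.54% CA replicate 1 or 3) to 9 (without replicate 4 of either), with 2 without 0.29% CA replicate 6 or 0.54% CA replicate 2, and 3 without replicate 5 of either. With the replicate number as a block the counts were 287 (243 among the 286), 7 and 1, in the order above. Deviations of same-numbered CA and control arrays correlated at 0.13 to 0.5 for replicates 1 to 6 and at -0.17 for replicate 7. Of the 7 CA arrays, 4 correlated best with the control of their own number. CA replicates 3, 6 and 7 correlated best with controls 4, 7 and 8, at 0.39, 0.43 and 0.42. This is a hint of pairing from the data, not from the design. A block by replicate number does not follow the matches of replicates 3, 6 and 7, so its counts do not check them. The cause of these shifts was not tested.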

Other observations

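Probe sets whose ID ends in _f_at, a suffix for probes shared by a family of sequences, were looked at after their values were seen. Of 186 tested in stained sections, 19 were lower and 2 higher at 0.29% CA than in controls, 11.3% against 3.61% of all tested. The lower ones had log2 fold changes from -2.17 to -0.51, and 17 of the 19 were also called lower in entire sections. Members of a family can read the same RNA, so these calls are not independent. Probe sets with the suffix _g_at had 29 higher and 13 lower calls of 839, which is 5.01%. Of the probe sets whose ID starts with rc_, 46 were higher and 53 lower of 3165, 3.13%, and of the other 4748, 99 were higher and 88 lower, 3.94%.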
